A study of Mus musculus with 17 samples.

Results

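The 10 genes described here encode the transcription factor ATF4, the factor CHOP (gene Ddit3), and regulators that act with them or are switched on by them: Trib3, Chac1, Atf3, Atf5, Cebpb, Cebpg, Nupr1 and Sesn2. They were chosen by name, with earlier results of these data known. Each of the 10 symbols matched 1 of the 43430 gene rows of the count tables. RNA was measured in 17 libraries of alveolar type 2 (AT2) cells, the surfactant-secreting cells of the lung alveolus, sorted from C57BL/6J mice that were 2 months old. In the first experiment, poly(A) libraries from 3 ng of RNA were made 24 h after ISRIB (4 libraries) or vehicle (4 libraries), and the mice were otherwise naive. In the second, total-RNA libraries from 0.35 ng came from 4 naive samples and from 5 samples taken 14 days after bleomycin, which damages lung tissue and is given to model fibrosis. The second experiment's mice are all labelled as given vehicle, and the titles of its 9 libraries and of the vehicle libraries say saline. Neither drug's dose is stated in these labels. They do not say that each library came from a separate animal, so p-values measure the spread between these libraries, which may be technical. Libraries are named by group and by the replicate number of the labels.

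The integrated stress response starts when a kinase phosphorylates the translation factor eIF2alpha, which blocks the exchange factor eIF2B and lowers general translation. A few mRNAs are then translated better, among them those of ATF4, ATF5 and CHOP, because short reading frames ahead of the coding sequence stop holding ribosomes back. ISRIB stabilises eIF2B and so opposes the effect of phosphorylated eIF2alpha. ATF4 is thus controlled largely at the level of translation, which these RNA counts do not measure, while many of its target genes are controlled through transcription. AT2 cells make and secrete large amounts of surfactant protein, and endoplasmic reticulum stress in them has been linked to lung fibrosis.

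ATF4 binds DNA together with C/EBP proteins at the C/EBP-ATF response element, whose core was searched here as TGATGNAA, or TTNCATCA on the other strand. The windows searched were the RefSeq promoter windows on GRCm38.p6, from 250 bases before to 50 after each start. The core was present in 4 of the 11 windows of the members (Atf5 has 2) and in 1304 of 32851 windows of all genes (3.97%). The 4 sites are shown because these are the members whose start region carries the letters that ATF4 is known to bind. The core is in capitals as read on the gene's strand, and each run is 30 bases, 5′ to 3′. The site of Atf3 is at chr1:191183425-191183454 (minus strand), that of Chac1 at chr2:119351038-119351067 (plus), that of Nupr1 at chr7:126625562-126625591 (minus) and that of Trib3 at chr2:152344028-152344057 (minus).
Atf3: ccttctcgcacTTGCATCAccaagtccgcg
Chac1: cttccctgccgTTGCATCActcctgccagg
Nupr1: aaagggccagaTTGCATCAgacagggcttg
Trib3: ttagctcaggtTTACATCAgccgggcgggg
In Atf3 the first base of the core was 110 bases before the RefSeq start, in Nupr1 also 110 and in Chac1 193. In Trib3 the core began 15 bases after the RefSeq start. GENCODE starts Trib3 further downstream, at chr2:152344032, and the Trib3 core lies before that start. The Nupr1 site lies within an exon of a longer GENCODE transcript of the same gene.

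Of the 4 members with the core, Nupr1 was called lower after bleomycin (log2 −0.82) and Atf3 higher (0.69). Trib3 was not called (−0.19) and Chac1 was not tested. The Atf3 call was lost on leaving out any of 7 of the 9 libraries, and Sesn2, also called higher, has no core in its window. The 250 bases before the RefSeq start of Atf3 are at chr1:191183334-191183583 on the minus strand. The last 7 lie in an exon of Atf3 transcripts in GENCODE.
Atf3: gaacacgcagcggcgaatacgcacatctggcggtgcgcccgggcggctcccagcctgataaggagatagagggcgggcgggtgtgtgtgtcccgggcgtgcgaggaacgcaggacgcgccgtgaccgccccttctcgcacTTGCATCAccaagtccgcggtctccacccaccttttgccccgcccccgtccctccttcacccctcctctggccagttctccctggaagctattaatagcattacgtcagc
The palindromic cAMP response element TGACGTCA was in 588 of 32851 windows (1.79%) and in 0 of the members' 11. The CCAAT box, searched as CCAAT or ATTGG, was in 12289 windows (37.4%) and in windows of 7 members: Atf3, Atf4, Atf5, Cebpg, Chac1, Ddit3 and Sesn2. These matches describe letters in these windows and show neither binding nor its absence.

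**Figure D1:**
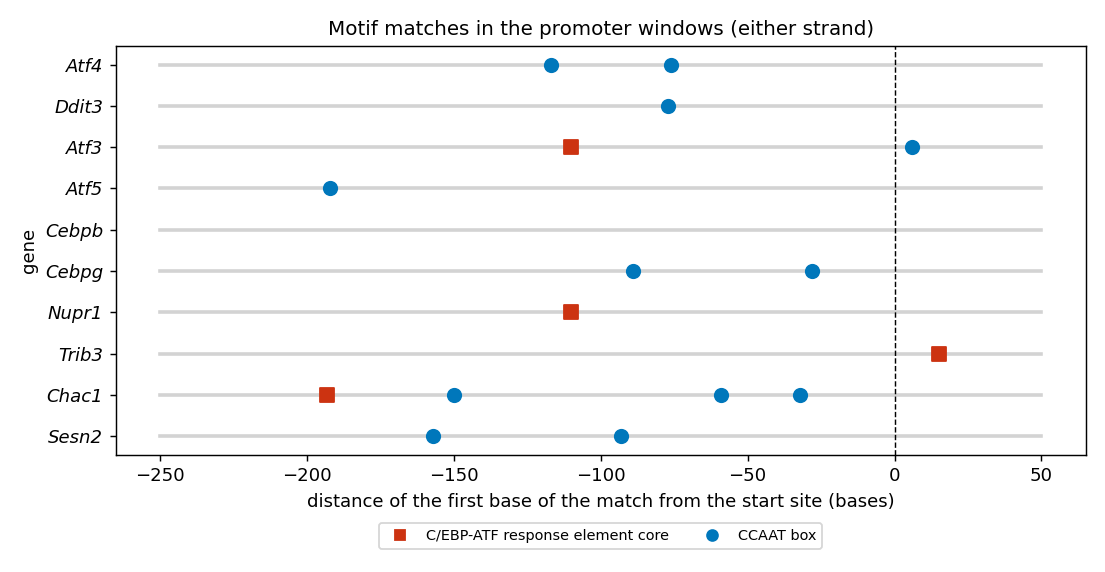
Positions of the response element core and the CCAAT box along the promoter window of each member. The horizontal axis gives bases from the RefSeq start, with 1 line per gene and the 2 windows of Atf5 drawn on 1 line. The cAMP response element matched no member window and is not drawn. The response element core is seen in Atf3, Chac1, Nupr1 and Trib3, before the RefSeq start in the first 3 and just after it in Trib3.

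Depth and cell markers frame the values. Total counts ran from 10493574 to 15727139 per poly(A) library and from 3295257 to 6333166 per total-RNA library, and the biological coefficient of variation was 7.66% and 21.1%. Levels are counts per 1000000 counts of the effective library size (CPM). The 10 AT2 markers (Sftpc, Sftpb and others) summed to 212747 to 221569 CPM in the poly(A) libraries and to 89937 to 99181 in the naive ones. In the bleomycin libraries they summed to 53566 and 63192 CPM in replicates 1 and 2 and to 82287 to 100329 in the other 3. Of the 10, Sftpd (log2 0.58) and Napsa (0.40) were called higher after bleomycin and Etv5 (−0.43) lower. Macrophage markers stayed at 11.6 CPM or less in sum in each library, with Marco at 0 in both total-RNA groups, and neutrophil and lymphocyte markers at 1.01 CPM or less. Fibroblast markers summed to 3.87 to 10.1 CPM in the naive libraries and to 17.5 to 115 in the bleomycin ones, and 3 of 3 tested (Col1a1, Col1a2, Col3a1) of 7 listed were called higher, with Tcf21 at 0 after bleomycin. Markers of AT1 cells, the flat cells of the alveolus, summed to 1023 to 1250 CPM and to 1612 to 2180, with 5 of 7 called higher. Endothelial markers summed to 17.9 to 26.4 and to 20.1 to 69.4 CPM, with 2 of 5 called higher. Airway markers summed to 374 to 802 and to 402 to 761 CPM, with 1 of 4 tested called higher: Foxj1 (log2 2.27, edgeR adjusted p = 0.00440), at 2.09 to 4.36 CPM in the naive libraries, 21.4 and 38.6 in bleomycin 1 and 2 and 7.12 to 7.13 in the other 3. Of all genes tested, 11.2% were called higher after bleomycin and 9.31% lower. In these bulk samples a lower share of cells of a type and less RNA per cell cannot be told apart.

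Per kilobase of exon, Nupr1 was the most abundant member and Chac1 the least in each vehicle, ISRIB and naive library. In the bleomycin libraries the range of Nupr1 (28.7 to 49.5 CPM per kilobase) overlapped with that of Atf4 (22.5 to 44.1). Within single libraries Nupr1 was the higher in each other than bleomycin 2. In the vehicle libraries (n = 4) Nupr1, a small stress-induced chromatin protein, stood at 50.4 ± 6.77 CPM per kilobase (SD). Atf4 followed at 30.6 ± 3.10 and Cebpb, a C/EBP factor that pairs with ATF4, at 26.4 ± 1.99 CPM per kilobase. Their ranges overlapped, but Atf4 was the higher within each vehicle library. Cebpg (17.0 ± 1.23), a C/EBP protein without an activation domain that also pairs with ATF4, overlapped in range with Atf5 (15.1 ± 0.595). Within each vehicle library Cebpg was the higher. Below them came Sesn2 (11.6 ± 1.55) and Trib3 (5.32 ± 1.00), then Ddit3 (2.96 ± 0.384) and Atf3 (2.94 ± 0.506), whose ranges overlapped, and Chac1 (0.391 ± 0.214). Read on this scale, mRNA for ATF4 itself was among the most abundant of the set in AT2 cells given vehicle, and mRNA for CHOP among the least.

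In the naive total-RNA libraries (n = 4) the order began in the same way. Nupr1 ranged from 57.7 to 79.8 CPM per kilobase, Atf4 from 35.1 to 46.3, Cebpb from 14.9 to 17.2 and Cebpg from 8.25 to 11.4. The next 4 could not be ordered beyond their spread: Ddit3 (5.22 to 7.25), Atf5 (4.29 to 8.58), Sesn2 (4.93 to 7.19) and Atf3 (4.29 to 7.11). Trib3 ranged from 2.05 to 3.25 and Chac1 from 0 to 1.17 CPM per kilobase. The place of Ddit3 depends on the gene model: with the longest transcript in place of all exons its level moved from 2.96 to 5.24 CPM per kilobase in the vehicle libraries and from 6.27 to 11.1 in the naive ones. The 2 kits were normalised separately, so levels are not compared across them.

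The first comparison asked how RNA of these regulators differed 24 h after ISRIB. With ISRIB, 0 of the 10 members passed the test (edgeR quasi-likelihood, Benjamini-Hochberg adjusted p under 0.05 over all genes), where 265 of 12054 genes did (2.20%; 1.10% higher and 1.10% lower). Their estimates nonetheless lay mostly above 0: 9 of 10 log2 fold changes were positive, with a median of 0.26 and a range of −0.09 to 0.76, against 6023 of 12054 and a median of 0.00 for all genes tested. The median absolute log2 fold change was 0.26 for the members, 0.10 for all genes and 0.38 for called genes. At an unadjusted p under 0.05, 5 of the 10 passed (Atf4, Ddit3, Atf3, Cebpb and Nupr1, each higher), as did 1934 of the 12054 genes. The marker sums of each cell type overlapped between the groups, and of the single markers Etv5 (AT2) and Chil3 (macrophage) were called lower. Airway markers summed to 3341 to 3742 CPM with vehicle and 2043 to 3672 with ISRIB, lowest in ISRIB 4 and next lowest in ISRIB 2 (2835). The settings decided whether any member passed. DESeq2 called 2 (Atf3 and Atf4) and 408 of 12054 genes. The test with no filter on low counts called 4 (those and Cebpb and Nupr1) and 648 of 22120 genes. With limma-voom the counts were 0 and 254 of 12054.

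Atf4 (ENSMUSG00000042406, chr15:80255184-80257541, plus strand, GRCm38) read 68.3, 65.1, 73.4 and 81.9 CPM in vehicle libraries 1 to 4 and 80.1, 83.8, 94.8 and 89.3 in ISRIB libraries 1 to 4. The groups overlapped by 1 library each, since vehicle 4 was above ISRIB 1. The means were 72.2 ± 7.32 and 87.0 ± 6.45 CPM (SD, n = 4 each). The log2 fold change was 0.27 (SE 0.07), with an edgeR adjusted p of 0.0690. This p fell to 0.0285 with DESeq2, to 0.0212 without vehicle 4 and to 0.0451 without ISRIB 1, and it lay between 0.00458 and 0.206 over the alternatives run.

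Ddit3 (ENSMUSG00000025408, chr10:127290774-127296288, plus strand) encodes the pro-apoptotic partner CHOP. It read 5.44, 4.52, 4.52 and 5.82 CPM with vehicle and 6.13, 6.49, 5.99 and 7.63 with ISRIB. Each ISRIB library was above each vehicle library, and Atf3 was the other member that showed this. A separation in either direction was seen in 8.65% of genes tested. The log2 fold change of Ddit3 was 0.37 (SE 0.15, edgeR adjusted p = 0.234), and no alternative brought that p below 0.200. Its exons share 68 bases with Mars and 13 with Gm4189 on the opposite strand, and whether reads were counted by strand was not stated.

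Atf3 (ENSMUSG00000026628, chr1:191170296-191218039, minus strand) encodes a bZIP factor that is induced by many stresses and mostly represses. It read 7.01, 6.60, 4.72 and 6.99 CPM with vehicle and 7.53, 7.37, 11.4 and 16.5 with ISRIB, so that ISRIB 1 and 2 lay just above the vehicle libraries and ISRIB 3 and 4 far above them. The coefficient of variation was 17.2% with vehicle and 40.1% with ISRIB. Its log2 fold change was 0.76 (SE 0.23), with an edgeR adjusted p of 0.0960, and 0.48 (adjusted p = 0.270) without ISRIB 4. That p was 0.0283 with DESeq2, 0.0451 without ISRIB 1 and 0.0496 without ISRIB 2 (3.64e-05 to 0.270 over the alternatives).

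Cebpb read 37.5, 39.0, 38.02 and 44.1 CPM with vehicle and 52.3, 56.7, 51.3 and 38.2 with ISRIB. ISRIB libraries 1 to 3 were above each vehicle library, and ISRIB 4 lay among them. The log2 fold change was 0.33 (SE 0.10, edgeR adjusted p = 0.0958), and 0.43 (adjusted p = 0.00982) without ISRIB 4 (0.00163 to 0.234 over the alternatives). Its exons share 312 bases with Tmem189 on the opposite strand. Nupr1 read 115, 144, 138 and 109 CPM with vehicle and 138, 166, 158 and 146 with ISRIB, with overlapping groups and a log2 fold change of 0.26 (SE 0.08, edgeR adjusted p = 0.112; 0.00209 to 0.292 over the alternatives).

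The other 5 members had adjusted p-values of 0.565 to 0.943 in the edgeR test. Atf5, a relative of ATF4 whose translation is controlled in a similar way, read 29.9, 29.8, 31.7 and 28.9 CPM with vehicle and 20.2, 32.6, 28.2 and 32.9 with ISRIB. ISRIB 1 was the low library, and the log2 fold change of −0.09 (SE 0.12) became 0.05 without it. Cebpg read 88.6, 90.3, 100.3 and 102.3 CPM with vehicle and 97.2, 98.7, 108.4 and 98.6 with ISRIB, a log2 fold change of 0.08 (SE 0.06), with 0.0428 without ISRIB 3 as the lowest on leaving out a library. The groups of Cebpg and Atf5 overlapped widely.

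Trib3, a pseudokinase that binds ATF4 and CHOP and dampens the response, read 10.1, 13.4, 12.8 and 8.93 CPM with vehicle and 12.1, 9.45, 10.6 and 14.4 with ISRIB, a log2 fold change of 0.04 (SE 0.15). Sesn2, a stress protein that restrains the growth kinase complex mTORC1, read 32.6, 42.0, 41.6 and 45.1 CPM with vehicle and 47.8, 47.8, 40.0 and 39.7 with ISRIB, a log2 fold change of 0.12 (SE 0.09), and 0.0357 without vehicle 1. Chac1, an enzyme that degrades glutathione, was read by 3 to 14 counts per library (29 with vehicle and 46 with ISRIB), with a log2 fold change of 0.56 (SE 0.43) that ran from 0.19 without vehicle 3 to 0.93 without vehicle 1, and no difference was detectable at this depth. For these 3 the groups overlapped, and the sign for Trib3 turned without vehicle 1, vehicle 4 or ISRIB 4 (lowest −0.07).

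**Figure D2:**
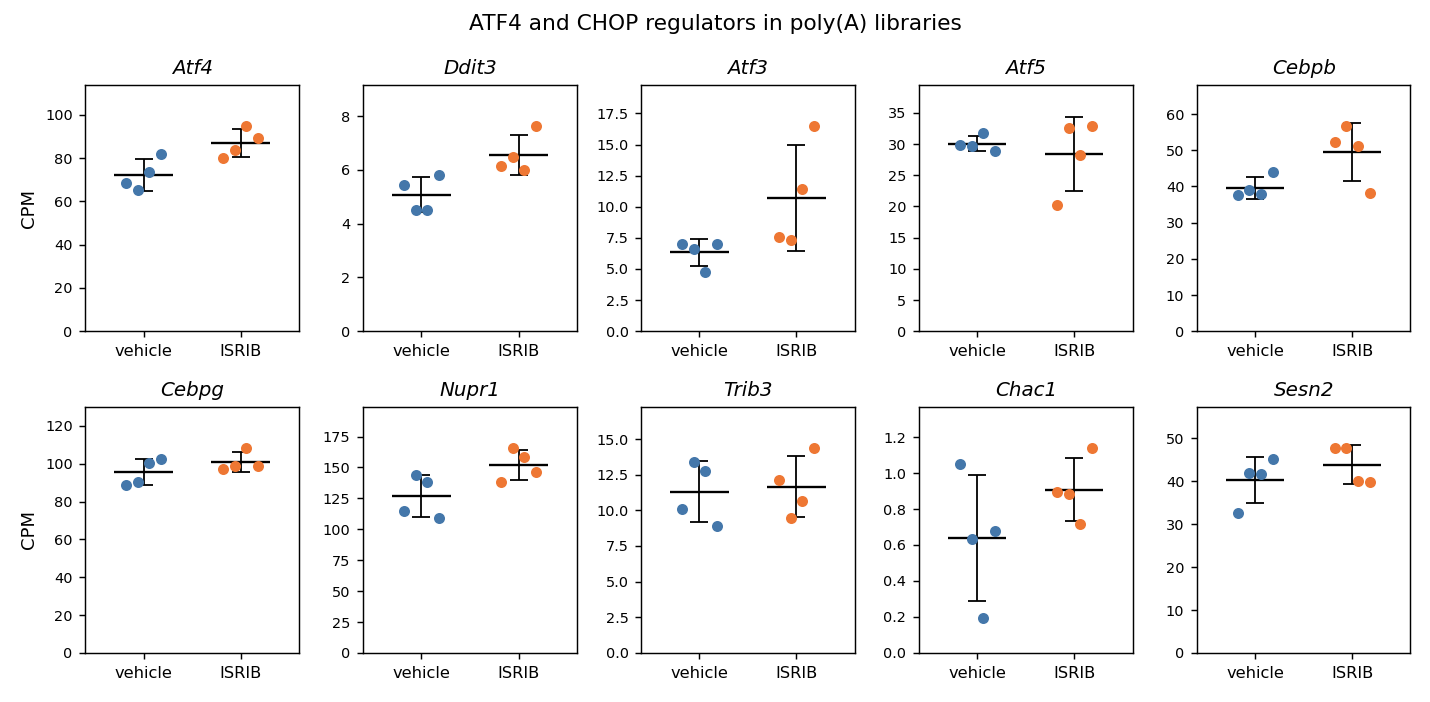
CPM of each member (vertical axes, linear, from 0) in the 4 vehicle and 4 ISRIB poly(A) libraries; points are libraries and bars are the mean ± SD. Ddit3 and Atf3 are the 2 members whose groups do not overlap, and the wide ISRIB spread of Atf3 (7.37 to 16.5 CPM) is visible.

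The second comparison asked how the same genes stood in AT2 cells 14 days after bleomycin. Sesn2 and Atf3 were called higher and Nupr1 lower than in naive cells, 3 of the 9 members tested, where 2304 of 11223 genes were called (20.5%; 11.2% higher and 9.31% lower). Atf4 and Ddit3 did not pass, with log2 fold changes of −0.22 and −0.05. Of the 9 estimates, 5 were above 0 (5636 of 11223 for all genes), and the median absolute log2 fold change was 0.30 for the members and 0.31 for all genes. The typical size of change among the members was thus near that of all genes.

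Sesn2 (ENSMUSG00000028893, chr4:132492032-132510501, minus strand) read 18.8, 25.0, 17.1 and 18.8 CPM in naive libraries 1 to 4 and 38.9, 44.8, 30.5, 29.4 and 37.2 in bleomycin libraries 1 to 5. Each bleomycin library was above each naive library, a separation in either direction that 19.7% of genes tested showed. The mean rose from 19.9 ± 3.48 (SD, n = 4) to 36.2 ± 6.33 CPM (n = 5), 1.81-fold, with a log2 fold change of 0.85 (SE 0.18, edgeR adjusted p = 0.00246). The adjusted p lay between 1.67e-04 and 0.0135 over the alternatives run.

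Nupr1 (ENSMUSG00000030717, chr7:126623249-126630861, minus strand) read 169, 173, 145 and 201 CPM in the naive libraries and 73.0, 72.2, 116, 124 and 101 in the bleomycin libraries. The groups did not overlap, and bleomycin 1 and 2 were the lowest. The mean fell from 172 ± 22.8 to 97.4 ± 24.1 CPM, a log2 fold change of −0.82 (SE 0.16, edgeR adjusted p = 0.00119; 7.27e-08 to 0.00901 over the alternatives). The summed fibroblast and AT1 markers differed between the same groups without overlap, and their part in the changes of the members was not tested. Without bleomycin 2 the log2 fold change was −0.72 for Nupr1 (edgeR adjusted p = 0.00197) and 0.77 for Sesn2 (adjusted p = 0.00611). Without bleomycin 1 the values were −0.73 (adjusted p = 0.00216) and 0.83 (adjusted p = 0.00420). In both fits each remaining bleomycin library still had a higher fibroblast and AT1 sum than each naive library. These fits therefore do not address the part of those cells.

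Atf3 read 9.73, 11.8, 15.3 and 9.24 CPM in the naive libraries and 25.9, 18.8, 13.01, 20.4 and 15.99 in the bleomycin libraries. The groups overlapped, since naive 3 was above bleomycin 3. The mean went from 11.5 ± 2.76 to 18.8 ± 4.87 CPM, a log2 fold change of 0.69 (SE 0.24) with an edgeR adjusted p of 0.0484, close to the threshold. The call was lost on leaving out any of 7 of the 9 libraries (adjusted p up to 0.152): naive 1 (0.134), naive 2 (0.0996), naive 4 (0.152), bleomycin 1 (0.0977), bleomycin 2 (0.0693), bleomycin 4 (0.0646) and bleomycin 5 (0.0501). It was also lost with limma-voom (0.0978) and upper-quartile scaling (0.0533), while the estimate stayed between 0.56 and 0.85 as single libraries were left out.

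Atf4 read 82.9, 109, 92.8 and 90.6 CPM in the naive libraries and 53.2, 78.3, 77.6, 104 and 91.5 in the bleomycin libraries. Bleomycin 1, 2 and 3 lay below the lowest naive library, with bleomycin 1 the lowest, and bleomycin 4 and 5 lay within the naive range. The means were 93.9 ± 11.1 and 80.9 ± 18.9 CPM, a log2 fold change of −0.22 (SE 0.16, edgeR adjusted p = 0.354), which moved to −0.10 without bleomycin 1 and to −0.13 without naive 2. Ddit3 read 12.4, 9.61, 12.01 and 8.94 CPM in the naive libraries and 9.79, 9.93, 11.8, 14.5 and 6.33 in the bleomycin libraries. The bleomycin values of Ddit3 spanned the naive ones on both sides, with a log2 fold change of −0.05 (SE 0.27, edgeR adjusted p = 0.927), and its sign turned without naive 1, naive 3 or bleomycin 5 (highest 0.10).

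The C/EBP members had higher means after bleomycin without passing the test. Cebpb read 22.5, 25.9, 23.1 and 22.9 CPM in the naive libraries and 31.7, 32.7, 34.7, 24.1 and 37.8 in the bleomycin libraries. Each bleomycin library other than bleomycin 4 was above the naive range, and the log2 fold change was 0.45 (SE 0.16, edgeR adjusted p = 0.0569), or 0.54 (adjusted p = 0.0132) without bleomycin 4 (0.0132 to 0.170 over the alternatives). Cebpg read 61.4, 46.4, 48.0 and 64.1 CPM against 41.5, 64.6, 66.3, 90.7 and 73.8, where bleomycin 1 was the lowest of the 9 libraries and the other 4 bleomycin libraries the highest. Its log2 fold change was 0.30 (SE 0.18, edgeR adjusted p = 0.264), with 0.43 (adjusted p = 0.0419) without bleomycin 1 and 0.18 (0.476) without bleomycin 4.

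Atf5 read 17.1, 8.55, 11.4 and 10.7 CPM in the naive libraries and 7.67, 19.1, 8.21, 23.5 and 14.9 in the bleomycin libraries, a log2 fold change of 0.30 (SE 0.32, edgeR adjusted p = 0.559) that ran from 0.0933 without bleomycin 4 to 0.51 without naive 1. Trib3 read 4.36, 5.13, 6.91 and 4.47 CPM against 2.12, 6.32, 6.35, 3.71 and 3.96, a log2 fold change of −0.19 (SE 0.39, edgeR adjusted p = 0.779) that ran from −0.34 without bleomycin 3 to −0.0197 without bleomycin 1. Both overlapped between the groups. Chac1 fell below the count filter and was not tested: it had 2, 9, 4 and 0 counts in the naive libraries and 13, 2, 4, 1 and 3 in the bleomycin libraries. The 0 in naive 4 allows up to 0.894 CPM (3 counts, counting error only), and the difference between the groups was not detectable at this depth.

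**Figure D3:**
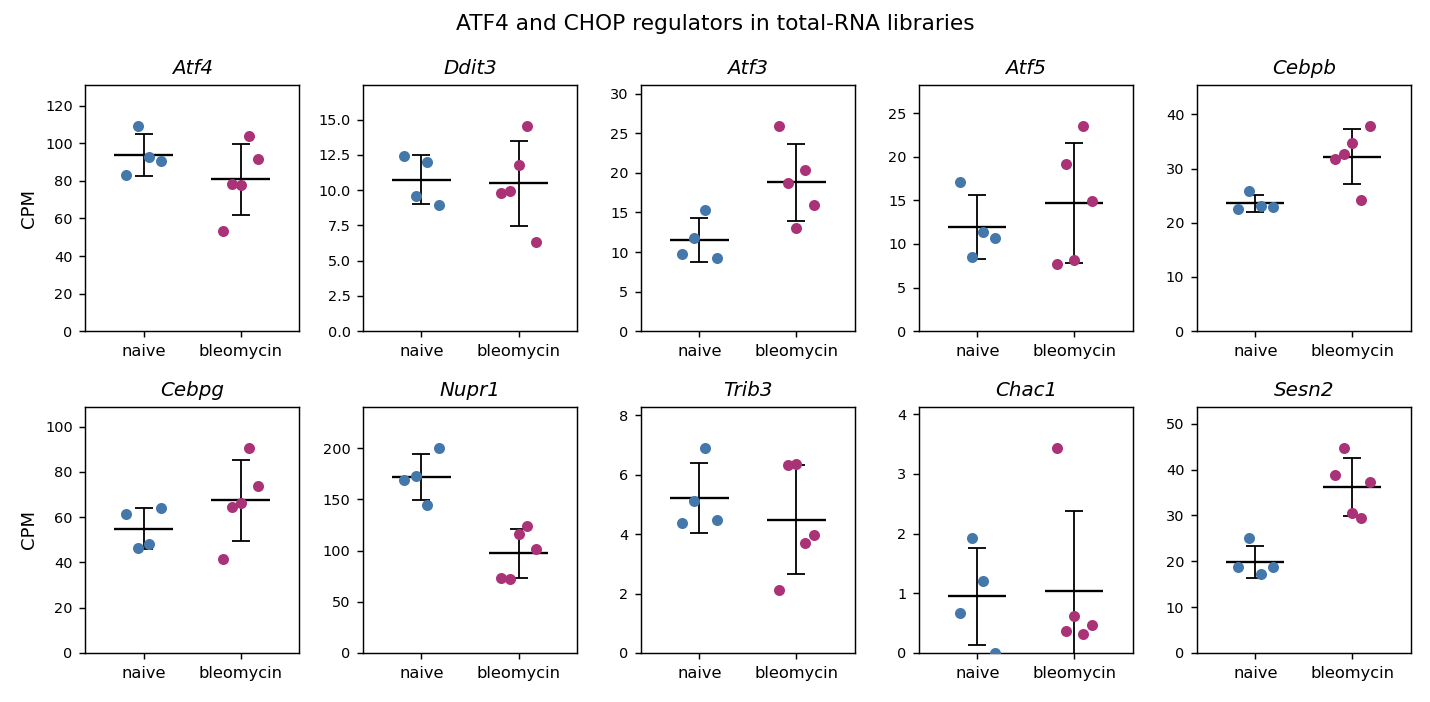
CPM of each member (vertical axes, linear, from 0) in the 4 naive and 5 bleomycin total-RNA libraries; points are libraries and bars are the mean ± SD. Sesn2 lies higher and Nupr1 lower after bleomycin without overlap, and Atf4 and Ddit3 overlap between the groups.

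The estimates of the 2 comparisons can be set side by side, but the comparisons share no library and were fitted separately by kit, and differences between them were not tested. Nupr1 had a log2 fold change of 0.26 with ISRIB and −0.82 after bleomycin. Sesn2 had 0.12 and 0.85. Atf4 (0.27 and −0.22) and Ddit3 (0.37 and −0.05) passed in neither. Atf3 had 0.76 and 0.69, and Cebpb 0.33 and 0.45.

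**Figure D4:**
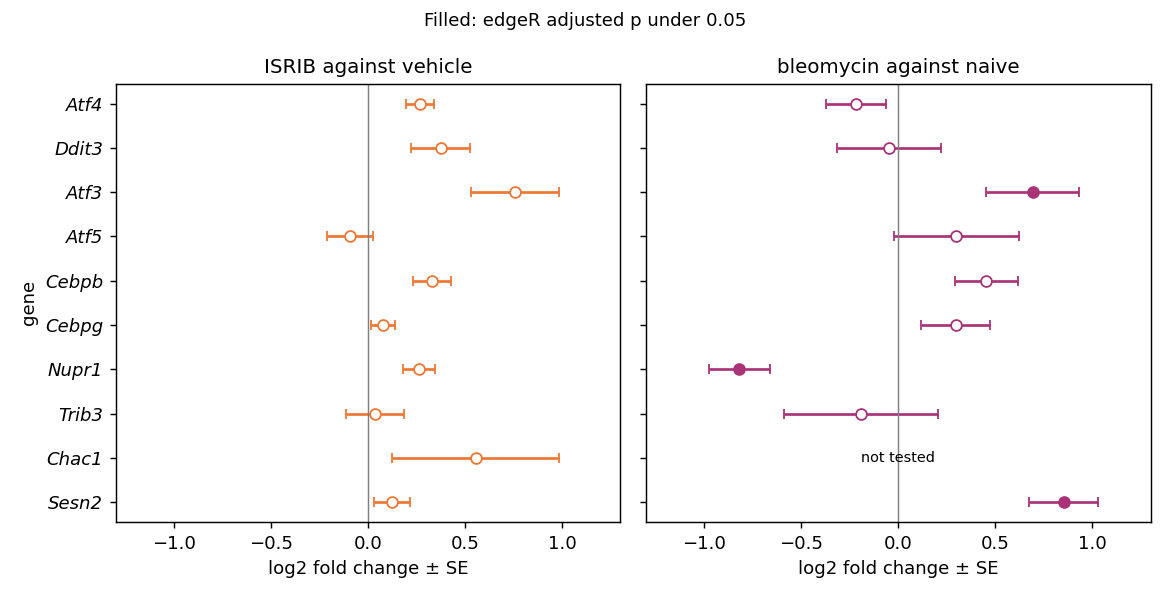
Log2 fold change (horizontal axis) of each member with ISRIB against vehicle and after bleomycin against naive; error bars are the SE and filled points passed the edgeR test. Filled points are Sesn2, Atf3 and Nupr1 after bleomycin, and Chac1 has no bleomycin value because it was not tested.

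Targets and relatives of these regulators were taken from 7 lists chosen by function, with earlier results of these data known. Of all genes tested, 2.20% were called with ISRIB. After ISRIB, 0 of 12 tested aminoacyl-tRNA synthetases, 0 of 9 other ATF4 or CHOP targets and 0 of 6 eIF2alpha kinases and phosphatase subunits were called by edgeR, with median log2 fold changes of −0.08, 0.11 and 0.06 (0.00 for all genes tested). Of 11 amino acid and one-carbon enzymes, Psat1, an enzyme of serine synthesis, fell from 11.7 ± 1.51 to 6.59 ± 1.26 CPM (log2 −0.82, adjusted p = 0.00945), and the median was −0.11. Of 7 tested amino acid transporters, Slc3a2, the heavy chain shared by several of them, rose (0.35, adjusted p = 0.0137) and the glutamine carrier Slc1a5 fell (−0.31, adjusted p = 0.0147). The calls were lost without vehicle 1 for Slc3a2 (adjusted p = 0.0566) and without vehicle 2 for Slc1a5 (0.0582).

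Among 16 tested bZIP relatives and partners, Jun (0.40, edgeR adjusted p = 0.0137) and Cebpd (0.37, 0.0319) rose with ISRIB and Junb fell (−0.47, 0.00817). Of 10 genes of the other endoplasmic reticulum stress branches, the degradation factor Herpud1 (0.35, 0.0213) and the co-chaperone Dnajb9 (0.44, 0.0372) rose, whereas the chaperones Hsp90b1 (−0.33, 0.00468) and Hyou1 (−0.41, 0.00952) and the co-chaperone component Sdf2l1 (−0.61, 0.0370) fell, with a list median of −0.21. Leaving out single libraries ended the call of Jun once (vehicle 1, adjusted p = 0.0546), of Herpud1 in 3 of 8 cases (vehicle 1 and 2 and ISRIB 3, up to 0.0820), of Cebpd in 4 (vehicle 1 and 3, ISRIB 3 and 4, up to 0.120), of Sdf2l1 in 5 (vehicle 1, 2 and 4, ISRIB 1 and 3, up to 0.128) and of Dnajb9 in 6 (vehicle 1, 2 and 3, ISRIB 1, 3 and 4, up to 0.133).

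After bleomycin the aminoacyl-tRNA synthetases, which charge tRNAs and include known ATF4 targets, had positive estimates in 12 of 12 cases. Their median log2 fold change was 0.34, against 0.00 for all genes. By edgeR 4 were called higher and 0 lower, where 11.2% of all genes tested were called higher and 9.31% lower. Aars rose from 62.4 ± 3.59 to 105 ± 20.2 CPM (0.75, adjusted p = 7.42e-04), Iars by 0.66 (0.0133; 0.0567 without naive 4) and Wars by 0.56 (0.0118). Of 9 tested enzymes 3 were called higher and 0 lower. Psat1 rose from 4.47 ± 1.73 to 12.8 ± 5.59 CPM (1.47, 0.00880, and 0.0819 with limma-voom). The others were the mitochondrial folate enzymes Mthfd2 (1.61, 0.0188) and Shmt2 (0.78, 0.0470). Mthfd2 stood at low levels, 1.94 ± 1.17 and 6.18 ± 1.97 CPM, and lost the call without naive 1 or 3 (up to 0.0708). Shmt2 lost it without any of 7 of the 9 libraries, bleomycin 1 and 2 excepted (up to 0.158), and in 4 of 6 alternatives that kept all libraries. Psat1 was thus called lower with ISRIB and higher after bleomycin, in separate fits whose difference was not tested.

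Of the 7 tested transporters after bleomycin, Slc3a2 rose (0.40, edgeR adjusted p = 0.0217; lost without naive 1, 2 or 4, up to 0.0918) and the glycine carrier Slc6a9 fell (−1.0001, 0.00720). Of 9 other targets, the death receptor Tnfrsf10b rose from 2.84 ± 0.766 to 7.45 ± 4.32 CPM (1.42, 0.0418), with bleomycin 4 within the naive range. Its call was lost without any of 7 libraries, bleomycin 4 and 5 excepted (up to 0.131). The pro-apoptotic Bcl2l11 (−1.37, 1.15e-04) and the lipoprotein receptor Vldlr (−0.79, 0.0104, and 0.0601 without naive 2) fell. Of the 6 kinases and phosphatase subunits, the amino acid-sensing kinase gene Eif2ak4 fell (−0.52, 0.00835). The list medians were 0.31, 0.14 and −0.06, and of all genes tested 11.2% were called higher and 9.31% lower.

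The bZIP relatives had a median log2 fold change of −0.21 after bleomycin, with 1 of 16 called higher by edgeR, Nfe2l2 (0.47, adjusted p = 0.00346), and 4 lower, of which Jun (−0.86, 2.86e-04), Fos (−0.95, 3.81e-04) and Crebzf (−0.56, 0.0196; 0.0715 without naive 3) had the lowest p. Of the 10 genes of the other endoplasmic reticulum stress branches, 6 were called higher and 1 lower, with a median of 0.62. The shares over all genes tested were 11.2% higher and 9.31% lower. The disulfide isomerase Pdia4 (1.05, 5.67e-05), the chaperone Hspa5 (0.72, 1.99e-04) and Creld2 (0.77, 4.85e-04) led, and Herpud1 fell (−0.72, 0.00334). The shifts in fibroblast, AT1, endothelial and airway (Foxj1) markers given above moved with these lists too, and their part was not tested.

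**Figure D5:**
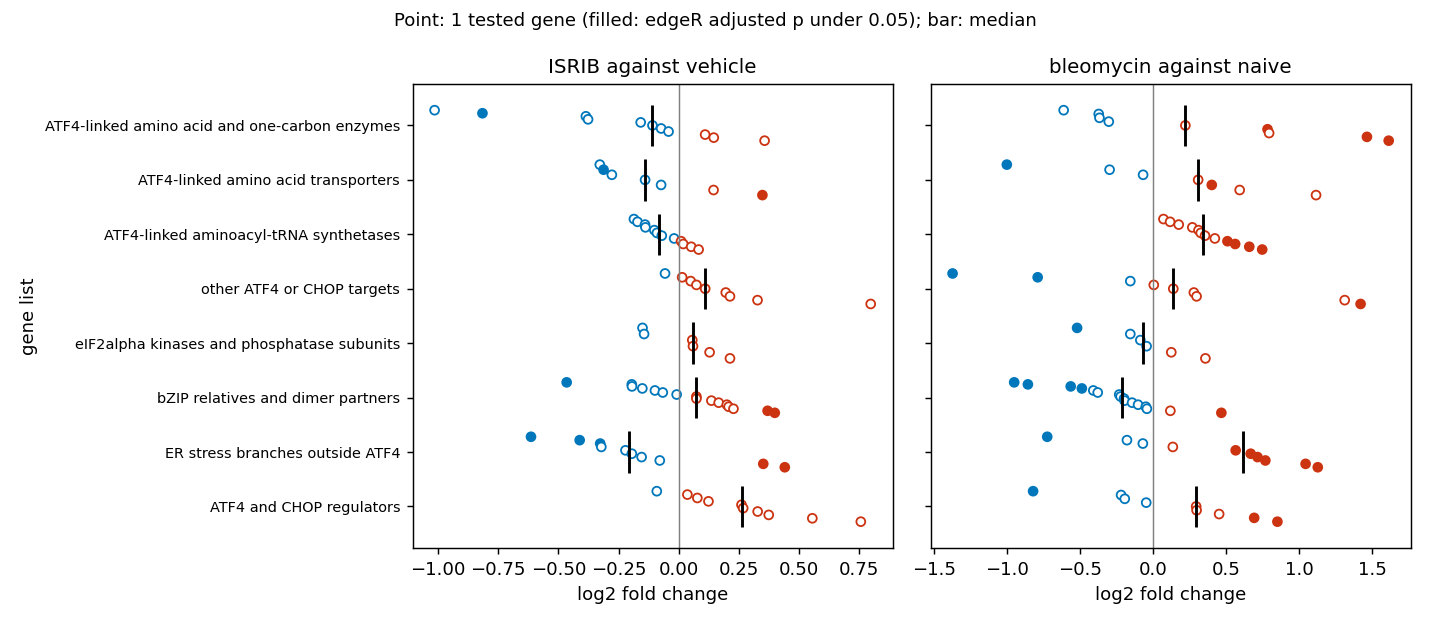
Log2 fold changes (horizontal axis) of the tested genes of each functional list and of the members, for ISRIB against vehicle and bleomycin against naive. Points are genes, outlined in red above 0 and in blue below it, and filled only where called. Bars are list medians. After bleomycin the 12 synthetases lie above 0 and the list of other endoplasmic reticulum stress genes has the highest median, 0.62.

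The genes whose pattern over libraries was most like that of Atf4 were sought by the root mean square difference of log2(CPM + 0.5), each gene centred on its own mean, among genes of at least 5 CPM. In the ISRIB experiment (8 libraries, 9321 genes) they were Pbx3 (0.050), Luc7l (0.051) and Strn3 (0.052), where Atf4 itself varied by 0.174 around its mean. In the bleomycin experiment (9 libraries, 9295 genes) they were Echs1 (0.109), Exd2 (0.122) and Ripk1 (0.124), against 0.285 for Atf4. The nearest member was Cebpg in both, at rank 263 with a difference of 0.1101 and at rank 2412 with 0.334. Many other genes were thus nearer to Atf4 by this measure than the members were. In the bleomycin experiment a gene with no variation would lie at 0.285, nearer than Cebpg, so the ranks there do not measure a shared pattern. Over this few libraries such nearness describes these samples alone.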

How the data were processed

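Per the submitters' processing notes, bcl2fastq 2.19.1, FastQC, Trimmomatic 0.36, STAR 2.6.0 and HTSeq 0.11.2 were used with build mm10. Not given in the sources used here are the annotation and the strand setting. The authors deposited raw counts of reads for each gene, with 1 table per kit and 1 column per library. The kit and RNA input are per the labels' protocols. Gene symbols, positions and exon lengths were taken by gene ID from GENCODE M21 (GRCm38), which held 42462 of the 43430 IDs, and promoter windows from RefSeq (GRCm38.p6).

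Each comparison was fitted within its kit on the whole table: filterByExpr (minimum count 10, minimum total 15), TMM scaling, then edgeR 4.0.16 (R 4.3.3) with group alone in the model and its quasi-likelihood F test, two-sided. The Benjamini-Hochberg adjustment ran over all genes tested, and called means an adjusted p under 0.05. CPM use effective library sizes after the filter. The SE is the log2 fold change divided by the root of F. The procedure was tested on simulated data. Alternatives were RLE and upper-quartile scaling, no filter, DESeq2 1.42.0, limma-voom (limma 3.58.1), a replicate block, each library left out, and the longest transcript as length.

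The members and the lists were chosen with earlier results of these data known. All 10 members are reported. Of each functional list, all called genes are named where at most 3 pass in a direction, otherwise the 3 with the lowest p, and the 3 genes most like Atf4 are named. Exact replicate copies were looked for and none was found. By the chi-square per degree of freedom of the counts of a pair of libraries, ISRIB 1 and 3 (3.50) and ISRIB 2 and 4 (4.38) were nearest. The other ISRIB pairs lay at 7.80 to 8.94. The cause of this split was not tested.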

Additional observations from a re-analysis of the deposited data

Results flagged for a closer look

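In each group of 4 or 5 libraries, the gap between the highest or lowest CPM of a member and its nearest neighbour was set against the group's range, and 2 of 40 such groups passed Dixon's critical value. Chance flags about 1 in 20 groups. Cebpg with ISRIB read 108.4 CPM in ISRIB 3 (1212 counts) against 97.2 to 98.7 in the other 3, a gap of 0.872 of the range. Chac1 after bleomycin read 3.44 CPM in bleomycin 1 (13 counts) against 0.309 to 0.619 in the other 4, a gap of 0.901 of the range.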

How the results depend on the processing

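Of the members' fold changes under the alternatives, 242 kept direction and side of the threshold, 15 newly passed, 10 no longer passed and 8 changed sign. After ISRIB 265 of 12054 genes were called, and 648 of 22120 with no filter and 408 of 12054 with DESeq2. With single libraries left out, 86 to 269 were called (86 without vehicle 1, 102 without vehicle 2, 159 without ISRIB 4). The members called went from 0 to 4 with no filter, 2 with DESeq2 and 0 to 2 with single libraries left out. After bleomycin 3 members were called, beside 2304 of 11223 genes. With upper-quartile scaling or limma-voom 2 members were called (beside 2325 and 2202 of 11223 genes), and 2 to 3 with single libraries left out. Sesn2 and Nupr1 were called in each. With single libraries left out, the log2 fold change ran from −0.0727 to 0.12 for Trib3 and −0.17 to 0.0549 for Atf5 with ISRIB, and from −0.18 to 0.10 for Ddit3 after bleomycin. The cause of these shifts was not tested. With the longest transcript as length, 11 of 40 levels per kilobase moved by more than their SD. The depth of the total-RNA libraries left Chac1 untested.

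No sign was seen that the replicate numbers pair the libraries, though so few libraries cannot exclude it. Same-numbered libraries' deviations correlated at −0.11 to 0.08 and −0.04 to 0.05, and 2 of 8 and 1 of 8 libraries correlated best with their own number. With a replicate block, 277 and 2187 genes were called, and 2 members in each comparison (Atf4, adjusted p = 0.0315, and Nupr1, 0.0221, with ISRIB; Sesn2 and Nupr1 after bleomycin, where Atf3 had 0.0738 and bleomycin 5, with no partner, carried no information). The log2 fold change of Ddit3 after bleomycin turned sign to 0.0898 with the block.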

Other observations

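Among the 5 bleomycin libraries, bleomycin 1 had the lowest CPM for 4 members (Atf4, Trib3, Atf5 and Cebpg) and the highest for 2 (Chac1 and Atf3), and bleomycin 4 the highest for 5 (Atf4, Ddit3, Atf5, Cebpg and Nupr1) and the lowest for 3 (Chac1, Cebpb and Sesn2). Among the ISRIB libraries, ISRIB 1 had the lowest CPM for 4 members (Atf4, Atf5, Cebpg and Nupr1) and ISRIB 4 the highest for 5 (Ddit3, Trib3, Chac1, Atf3 and Atf5).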
